A study of Mus musculus with 6 samples.

Results

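Heterotrimeric G proteins carry signals from receptors that cross the membrane to enzymes and channels inside the cell, and RGS proteins end those signals. The genes described here are the alpha, beta and gamma subunits, the RGS (regulator of G protein signalling) genes and the Gpsm genes, which encode receptor-independent G protein modulators. They were picked by gene symbol, with earlier results of these data known, and number 57 of the 22272 distinct symbols of the count table. Of these, 35 had enough reads to be tested, among 12166 genes tested in all.

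RNA was sequenced from 6 samples of C2C12, a mouse myoblast line, all undifferentiated and taken at day 0. In 3 samples the cells overexpressed ChREBP-beta, the short active isoform of the glucose-responsive transcription factor encoded by Mlxipl. In the 3 control samples the cells carried GFP and their genotype was labelled WT. The labels do not say how the factor was introduced, whether the cells were a clone or a pool, or whether replicates were separate cultures. The p-values therefore rest on differences among libraries that may be technical repeats.

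An alpha subunit binds GDP at rest and sits on a beta-gamma dimer. An activated receptor makes it exchange GDP for GTP, after which the alpha subunit and the dimer act apart: Gs alpha stimulates adenylyl cyclase, Gi alpha inhibits it, Gq alpha activates phospholipase C beta, and G12 alpha activates guanine nucleotide exchange factors of small GTPases. RGS proteins speed the hydrolysis of GTP by Gi and Gq alpha subunits and so shorten the signal. In muscle cells, G protein signals from adrenergic and lysophospholipid receptors bear on growth, contraction and metabolism.

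The libraries held 17600238 to 19163834 counts, with both groups across that range. Mlxipl was read at 215 to 222 CPM (counts scaled to the size and make-up of each library) with ChREBP-beta and at 0.501 to 0.719 CPM with GFP, so all 6 libraries match their labels. The 6 myoblast markers were all lower with ChREBP-beta and summed to 119 to 126 CPM, against 342 to 374 CPM with GFP. Among them the muscle identity factor Myod1 averaged 1.23 CPM with ChREBP-beta and 30.8 CPM with GFP. The marker Pax7 had enough reads to be tested only through the GFP libraries, so a call on it could only be lower. The 6 fibroblast markers summed to 875 to 900 CPM with ChREBP-beta and 827 to 861 CPM with GFP, 4 of them higher and 2 lower. Of those higher, Pi16 had enough reads to be tested only through the ChREBP-beta libraries, so a call on it could only be higher. The 5 leukocyte markers summed to 2.29 to 3.12 CPM with ChREBP-beta and 1.11 to 3.24 CPM with GFP. GFP replicate 1 stood apart in holding almost no RNA of lung markers, whose 4 genes summed to 0.523 CPM there and to between 67.9 and 133 CPM in the other libraries, and hepatocyte markers were near 0 in GFP replicates 1 and 2. The synaptic gene Syt1, a neural marker, was lower with ChREBP-beta, at 0.319 to 0.405 CPM with ChREBP-beta and 4.34 to 4.43 CPM with GFP (edgeR adjusted p = 4.84e-10). Syt1 had enough reads to be tested only through the GFP libraries, so a call on it could only be lower. The part of these differences in the results was not tested. For the myoblast and fibroblast markers in bulk RNA, fewer cells of a type and less RNA per cell cannot be told apart.

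As a whole the genes took nearly the same share of the RNA in both groups, while single members differed. Together they held 0.329% to 0.330% of all counts in the ChREBP-beta libraries, against 0.327% to 0.329% in the GFP libraries. Of the 35 tested members, 7 were higher with ChREBP-beta, 14 were lower and 14 were not called (edgeR quasi-likelihood test, calls at a Benjamini-Hochberg adjusted p under 0.05 over all genes). Among all genes tested 29.5% were called higher, 29.3% lower and 58.7% in either direction, so the 60% of members called is near the background. These shares are also the background for the counts within each class, which rest on few genes. At least 2-fold changes were called for 9 members (25.7%), 2 higher and 7 lower, where all genes gave 11.5% in either direction, 4.06% higher and 7.42% lower. The lower members include Gnai1, which passed the filter on low counts only through the GFP libraries, so its direction was fixed by the filter. The groups did not overlap for 25 of the 35 tested members (71.4%), against 63.2% of all genes tested. The median log2 fold change was -0.13 over the tested members and -0.004 over all genes.

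**Figure D1:**
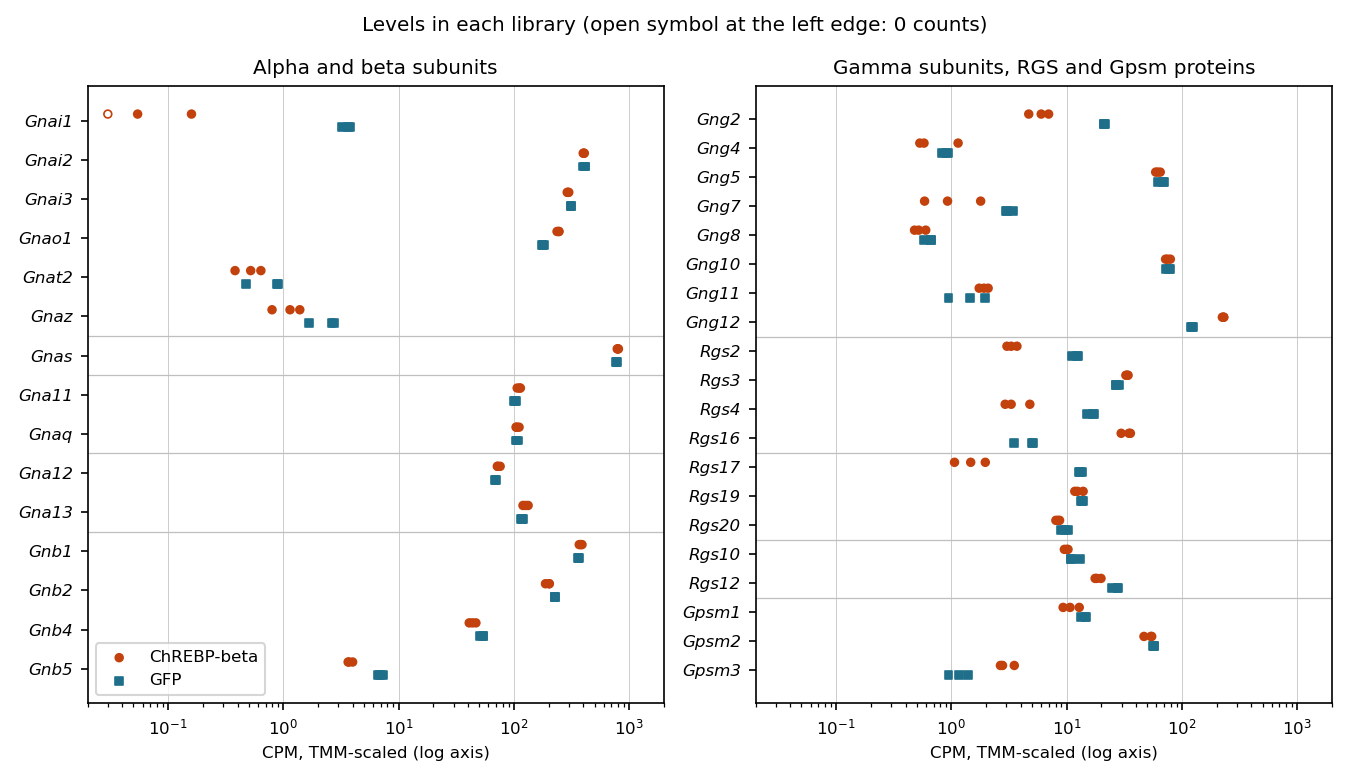
CPM of each of the 35 tested members in each library, on a log axis, with circles for the 3 ChREBP-beta and squares for the 3 GFP libraries and an open circle at the left edge for 0 counts; grey lines part the alpha classes, the beta subunits, the RGS families and the Gpsm genes. The abundant alpha and beta genes nearly coincide between groups, whereas the groups stand clear of each other for Gnai1, Gng2, Gng7, Gng12, Rgs2, Rgs4, Rgs16, Rgs17 and Gpsm3.

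The large differences were among the members of lower level. Of 14 members with a mean of at least 50 CPM in both groups, 0 changed 2-fold, where 2.16% of all genes at that level did, and Gng12 came closest. All 9 of the 2-fold changes fell among the other 21 members (42.9%), where 16.1% of all genes of lower level changed 2-fold. The 42.9% includes Gnai1, whose direction was fixed by the filter. The 50 CPM limit was chosen after the values were seen.

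The promoter windows of 4 members are printed here: Rgs16, the member with the largest rise, which is known as a ChREBP target in liver, its relatives Rgs4 and Rgs2, which moved the other way, and Gnai1, the member with the largest fall. They were picked after their values were seen. The sequences are from RefSeq on GRCm38.p6, 250 bases before to 50 after the annotated start, 5′ to 3′ on the gene's strand. Capitals mark matches on either strand to the E-box CACGTG (the core bound by ChREBP and Mlx, as by Myc and Max), to the cAMP response half-site TGACG and to the TATA box TATAAA. They lie at chr1:153740103-153740402, plus strand (Rgs16), chr1:169747593-169747892, minus strand (Rgs4), chr1:144004100-144004399, minus strand (Rgs2) and chr5:18360364-18360663, minus strand (Gnai1).
Rgs16: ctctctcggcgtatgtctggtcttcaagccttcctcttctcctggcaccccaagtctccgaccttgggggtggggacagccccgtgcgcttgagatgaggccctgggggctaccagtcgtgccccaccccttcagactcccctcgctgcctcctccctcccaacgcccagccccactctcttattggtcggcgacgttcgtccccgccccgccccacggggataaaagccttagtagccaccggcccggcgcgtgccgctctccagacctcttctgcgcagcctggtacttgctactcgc
Rgs4: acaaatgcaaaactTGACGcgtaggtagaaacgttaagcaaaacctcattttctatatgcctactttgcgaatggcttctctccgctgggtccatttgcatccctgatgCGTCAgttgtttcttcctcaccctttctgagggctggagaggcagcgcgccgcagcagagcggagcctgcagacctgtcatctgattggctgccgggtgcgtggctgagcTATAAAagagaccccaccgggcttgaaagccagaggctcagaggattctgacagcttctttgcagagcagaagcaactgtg
Rgs2: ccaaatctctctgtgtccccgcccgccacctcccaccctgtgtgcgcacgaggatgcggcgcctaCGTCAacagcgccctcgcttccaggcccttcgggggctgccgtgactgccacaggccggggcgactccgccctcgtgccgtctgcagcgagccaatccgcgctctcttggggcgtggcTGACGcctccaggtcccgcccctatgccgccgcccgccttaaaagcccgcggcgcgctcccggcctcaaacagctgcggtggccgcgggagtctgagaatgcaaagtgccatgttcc
Gnai1: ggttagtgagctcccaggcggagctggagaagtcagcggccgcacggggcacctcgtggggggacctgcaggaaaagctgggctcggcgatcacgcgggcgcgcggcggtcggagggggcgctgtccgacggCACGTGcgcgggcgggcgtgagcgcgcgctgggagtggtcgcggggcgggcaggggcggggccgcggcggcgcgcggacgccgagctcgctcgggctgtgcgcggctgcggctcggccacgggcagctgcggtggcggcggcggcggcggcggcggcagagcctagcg

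None of the 3 motifs is in the Rgs16 window. Rgs4 has 2 half-sites and 1 TATA box, Rgs2 has 2 half-sites, and Gnai1 has 1 E-box. Of the 43 members with a window, 6 have an E-box in at least 1 of theirs: Gna13, called higher, Gnai1, Gnai3 and Gng7, called lower, Rgs19, not called, and Rgs7, not tested. By window, 10.2% of the members' 59 windows and 7.15% of all 32851 windows hold an E-box, 23.7% and 20.8% hold the half-site, and 15.3% and 13.6% hold the TATA box. A pattern of 2 perfect E-boxes parted by 5 bases is in 0 of the 32851 windows, so it could not tell members from other genes, and carbohydrate response elements with imperfect E-boxes were not searched for. A match is only a description of these letters, and a gene can have sites outside its window.

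Gi-class alpha subunits inhibit adenylyl cyclase. Their summed level stayed level between groups, but Gnai1 was nearly lost and Gnao1 rose. Gnai1 (ENSMUSG00000057614.6; chromosome 5, 18265135 to 18360355, minus strand) had 1, 3 and 0 counts in ChREBP-beta replicates 1 to 3, against 69, 69 and 58 counts in GFP replicates 1 to 3. The 4 counts in the ChREBP-beta libraries thus stand against 196 in the GFP libraries, a ratio 48.4-fold lower (95% counting interval 18.6 to 180-fold, for counting error only), and the fitted log2 fold change was -5.47 (SE 0.488, edgeR adjusted p = 7.15e-10). Gnai1 passed the filter on low counts only through the GFP libraries, so a tested gene with its ChREBP-beta counts had to be lower, and the counts themselves are the result. Without ChREBP-beta replicate 2, which holds 3 of the 4 counts, the log2 fold change was -6.67. Gnao1, the alpha subunit best known from neurons, stood at 246, 244 and 236 CPM in the ChREBP-beta libraries, against 176, 177 and 182 CPM in the GFP libraries. It was 1.36-fold higher without overlap between groups (log2 fold change 0.44, SE 0.031, edgeR adjusted p = 7.3e-12). Gnaz, an alpha subunit that pertussis toxin does not modify, was 2.12-fold lower at low level, with 1.14, 0.797 and 1.39 CPM in the ChREBP-beta libraries and 1.67, 2.77 and 2.62 CPM in the GFP libraries (edgeR adjusted p = 0.00615). It is the member just inside a 2-fold change, and Gng12 and Gnb5 are just outside.

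The widely expressed Gi subunits changed little. Gnai2 averaged 403 ± 4.41 CPM with ChREBP-beta and 408 ± 11.4 CPM with GFP (SD, n = 3 each; edgeR adjusted p = 0.637), and Gnai3 had 290, 299 and 295 CPM in the ChREBP-beta libraries, against 315, 310.0 and 312 CPM in the GFP libraries, 1.06-fold lower (edgeR adjusted p = 0.0127, and 0.0725 without ChREBP-beta replicate 1). Gnat2, the cone transducin of the retina, had 28 counts over the ChREBP-beta and 41 over the GFP libraries (edgeR adjusted p = 0.33). Levels of different genes can be compared per length, here as CPM per kilobase of annotated exon. On that scale Gnai2 stood at 107 and Gnai3 at 90.3 with ChREBP-beta, and at 108 and 95.7 with GFP, and Gnao1 at 21.9 with ChREBP-beta and 16.1 with GFP. Gnai1, at 0.0227 per kilobase with ChREBP-beta and 1.13 with GFP, was a small part of the class in both groups: 0.0104% of the Gi-class sum with ChREBP-beta and 0.511% with GFP. Gnao1 made up 9.99% ± 0.241 of that sum with ChREBP-beta and 7.27% ± 0.222 with GFP (SD, n = 3 each). The Gi-class sum was 219.5 ± 0.828 with ChREBP-beta and 222 ± 2.98 with GFP, on the same scale.

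The other alpha subunits differed by less than 1.1-fold where they were called at all. Gnas, which encodes the stimulatory Gs alpha, averaged 796 ± 9.32 CPM with ChREBP-beta and 776 ± 3.32 CPM with GFP (SD, n = 3 each; edgeR adjusted p = 0.221). Its locus also makes other transcripts from upstream starts, and its counts were fractional in 4 of 6 libraries. Gnaq, the Gq alpha, averaged 107 ± 3.38 CPM with ChREBP-beta and 106 ± 1.84 CPM with GFP (edgeR adjusted p = 0.699), while its close relative Gna11 rose 1.09-fold (edgeR adjusted p = 0.00742). Of the G12 class, Gna13 rose 1.08-fold with overlapping groups (edgeR adjusted p = 0.0244) and Gna12 averaged 73.4 CPM with ChREBP-beta and 68.9 CPM with GFP (edgeR adjusted p = 0.0781). Gna11 and Gna13 were not called when libraries were scaled by size alone (edgeR adjusted p = 0.084 and 0.22), with log2 fold changes still positive at 0.08 and 0.06. The Gna13 call was also lost with upper-quartile scaling (edgeR adjusted p = 0.115) and without ChREBP-beta replicate 1 or 2 or GFP replicate 1 or 2 (edgeR adjusted p = 0.122, 0.0553, 0.0871 and 0.0527). Across the class, 3 of 11 tested alpha subunits were higher, 3 lower and 5 not called. Gnai1, whose direction was fixed by the filter, is among the lower ones.

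Beta subunits form a stable dimer with gamma. Of 4 tested, 3 fell and 0 rose, where 29.3% of all genes fell and 29.5% rose. Gnb5, the divergent beta subunit that pairs with RGS proteins of the R7 family, had 3.65, 3.99 and 3.70 CPM in the ChREBP-beta libraries and 6.85, 7.30 and 6.63 CPM in the GFP libraries, without overlap. It was 1.83-fold lower (log2 fold change -0.87, SE 0.158, edgeR adjusted p = 4.48e-05). Gnb4 was 1.21-fold lower (edgeR adjusted p = 0.000205) and Gnb2 1.15-fold lower, with 188, 202 and 203 CPM in the ChREBP-beta libraries and 228, 228 and 225 CPM in the GFP libraries (edgeR adjusted p = 1.15e-05). Gnb1 averaged 379 ± 10.4 CPM with ChREBP-beta and 362 ± 2.39 CPM with GFP (SD, n = 3 each) and stood at the threshold (edgeR adjusted p = 0.0504). It was called higher under 6 alternatives, among them RLE scaling, DESeq2 and limma-voom (adjusted p = 0.0404, 0.0419 and 0.0415). Per kilobase, Gnb1 made up 58.6% ± 0.416 of the beta sum with ChREBP-beta and 53.7% ± 0.311 with GFP, and Gnb2 38.3% ± 0.522 with ChREBP-beta and 42.2% ± 0.234 with GFP (SD, n = 3 each).

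Gamma subunits anchor the dimer to the membrane through a lipid tail. Of 8 tested, Gng12 rose, Gng2 and Gng7 fell and 5 were not called. Gng12, a widely expressed gamma subunit (ENSMUSG00000036402.13; chromosome 6, 66896397 to 67021350, plus strand), had 231, 229 and 224 CPM in the ChREBP-beta libraries, against 125.1, 123 and 119 CPM in the GFP libraries. The groups were far apart, and the gene was 1.86-fold higher (log2 fold change 0.90, SE 0.033, edgeR adjusted p = 1.98e-17). Gng2, common in brain and in cells of the blood, had 6.96, 6.01 and 4.68 CPM in the ChREBP-beta libraries, against 21.0, 21.5 and 20.8 CPM in the GFP libraries. It was 3.57-fold lower (log2 fold change -1.84, SE 0.115, edgeR adjusted p = 8.75e-13). Gng7, known from the striatum, had 0.925, 0.585 and 1.79 CPM in the ChREBP-beta libraries, against 3.03, 2.99 and 3.45 CPM in the GFP libraries, and was 2.89-fold lower (edgeR adjusted p = 2.5e-04).

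Gng10 and Gng5, the other abundant gamma genes, averaged 75.4 and 61.7 CPM with ChREBP-beta and 76.1 and 66.2 CPM with GFP and were not called (edgeR adjusted p = 0.826 and 0.102). Per kilobase, Gng12 made up 36.4% ± 0.344 of the gamma sum with ChREBP-beta and 22.4% ± 0.21 with GFP, whereas Gng10 made up 43.4% ± 1.33 with ChREBP-beta and 50.01% ± 0.386 with GFP (SD, n = 3 each). The gamma sum was 132 ± 2.95 CPM per kilobase with ChREBP-beta and 116 ± 4.02 with GFP. Gng11 averaged 1.91 CPM with ChREBP-beta and 1.44 CPM with GFP (edgeR adjusted p = 0.28), and its lowest library was GFP replicate 1, at 0.942 CPM, the library with almost no lung marker RNA. Gng4 and Gng8 lay under 1 CPM on average in both groups and were not called (edgeR adjusted p = 0.64 and 0.648).

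**Figure D2:**
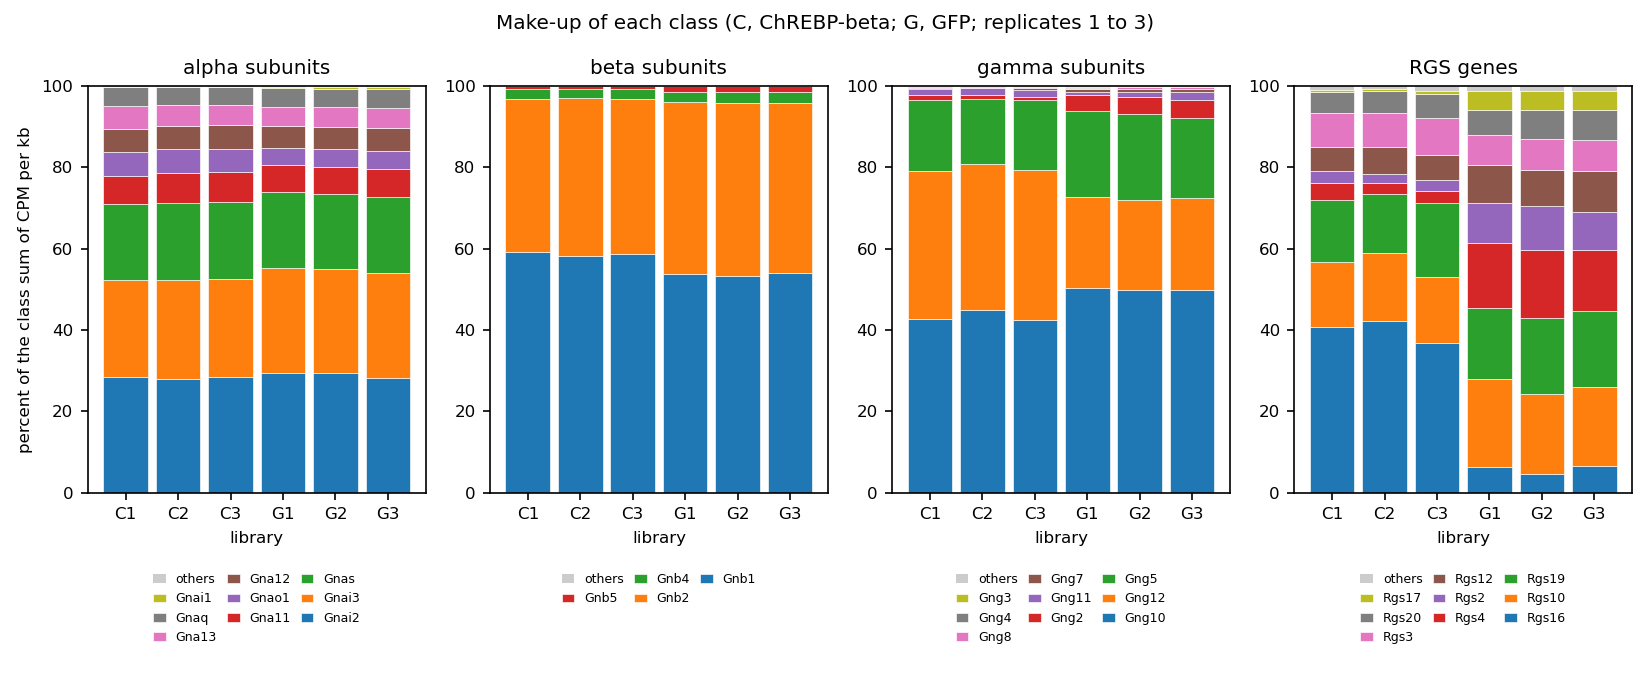
Percent of each class sum of CPM per kilobase held by each gene, per library, for alpha, beta and gamma subunits and RGS genes, with the 3 ChREBP-beta libraries left of the 3 GFP libraries in each panel. The alpha panel looks alike in both groups, Gng12 takes 36.4% with ChREBP-beta and 22.4% with GFP of the gamma sum, and Rgs16 takes 39.9% with ChREBP-beta and 5.79% with GFP of the RGS sum.

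RGS genes of the R4 family encode small proteins that are little more than an RGS domain with a membrane-binding helix. All 4 tested members changed, 2 in each direction. Rgs16 (ENSMUSG00000026475.7; chromosome 1, 153740349 to 153745468, plus strand), whose promoter is shown above, had 34.6, 35.7 and 29.7 CPM in the ChREBP-beta libraries, against 5.08, 3.48 and 5.01 CPM in the GFP libraries. It was 7.35-fold higher (log2 fold change 2.88, SE 0.115, edgeR adjusted p = 1.29e-16). Rgs3, a larger member with alternative N-terminal parts, had 33.5, 32.6 and 34.0 CPM in the ChREBP-beta libraries and 28.3, 26.7 and 26.9 CPM in the GFP libraries, 1.22-fold higher (edgeR adjusted p = 3.87e-04). Rgs4 (ENSMUSG00000038530.11; chromosome 1, 169741477 to 169747642, minus strand), an inhibitor of Gi and Gq signals in brain and heart, had 4.79, 2.92 and 3.30 CPM in the ChREBP-beta libraries, against 17.3, 16.8 and 15.1 CPM in the GFP libraries, 4.47-fold lower (log2 fold change -2.16, SE 0.143, edgeR adjusted p = 2.64e-12). Rgs2, which is selective for Gq and lowers vascular tone, had 3.70, 3.03 and 3.30 CPM in the ChREBP-beta libraries, against 12.2, 12.7 and 11.1 CPM in the GFP libraries, 3.59-fold lower (log2 fold change -1.84, SE 0.140, edgeR adjusted p = 3.8e-11). None of these 4 genes had overlapping groups, where 63.2% of all genes tested had none either.

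In the RZ family, whose best known target is Gz alpha, Rgs17 fell and the other 2 tested members were not called. Rgs17 (ENSMUSG00000019775.17; chromosome 10, 5825663 to 5922400, minus strand) had 1.47, 1.06 and 1.97 CPM in the ChREBP-beta libraries, against 13.5, 12.9 and 12.7 CPM in the GFP libraries, 8.74-fold lower (log2 fold change -3.13, SE 0.173, edgeR adjusted p = 8.6e-14). Rgs19, which is also known as GAIP, averaged 12.7 ± 1.09 CPM with ChREBP-beta and 13.6 ± 0.19 CPM with GFP, and Rgs20 8.37 ± 0.311 CPM with ChREBP-beta and 9.66 ± 0.737 CPM with GFP (SD, n = 3 each; edgeR adjusted p = 0.378 and 0.137). Gnaz, the alpha subunit the family is known to act on, was lower too, as given above. In the R12 family, Rgs12, a large scaffold that also binds Ras and Gi alpha, was 1.44-fold lower (edgeR adjusted p = 3.23e-06), and Rgs10 averaged 9.94 CPM with ChREBP-beta and 11.6 CPM with GFP (edgeR adjusted p = 0.0891). The R7 genes and their membrane anchors, the partners of Gnb5, had at most 33 counts over the 3 libraries of a group and were not tested.

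The make-up of the RGS transcripts differed between groups more than their sum did. On the scale of CPM per kilobase, the RGS genes summed to 35.6 ± 1.09 with ChREBP-beta and 33.3 ± 1.24 with GFP (SD, n = 3 each). Rgs16 made up 39.9% ± 2.78 of this sum with ChREBP-beta and 5.79% ± 1.07 with GFP. Rgs4 made up 3.32% ± 0.834 with ChREBP-beta and 15.9% ± 0.89 with GFP, Rgs2 2.59% ± 0.246 with ChREBP-beta and 9.93% ± 0.708 with GFP, and Rgs17 0.51% ± 0.168 with ChREBP-beta and 4.72% ± 0.0556 with GFP. Per kilobase, Rgs10 was the highest RGS gene with GFP, at 20.3% of the sum, with Rgs19 next at 18.3%, and Rgs16 was the highest with ChREBP-beta. The ranking and the sums depend on the annotated exon lengths used. By CPM alone, Rgs3 at 27.3 and Rgs12 at 26.7 stood above Rgs10 at 11.6 with GFP. With ChREBP-beta, Rgs3 at 33.4 CPM and Rgs16 at 33.3 CPM were nearly equal. These shares are descriptions with no test. Annotated exons of Rgs16, Gng2, Gnb5 and Gnao1 share 236, 897, 248 and 284 bases with a gene on the opposite strand, and 946 of the 1314 exonic bases of Gng10 are shared with a gene on the same strand, so some of their reads may belong to the partner gene. The partner of Gng10, Gm20503, had 0 counts in the table in both groups.

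Gpsm proteins hold Gi alpha in its GDP form through GoLoco motifs, and Gpsm2, also called LGN, places the mitotic spindle. All 3 tested members were called. Gpsm3, known from leukocytes, had 2.77, 3.51 and 2.66 CPM in the ChREBP-beta libraries, against 0.942, 1.16 and 1.39 CPM in the GFP libraries, 2.56-fold higher (log2 fold change 1.36, SE 0.285, edgeR adjusted p = 2.49e-04). Its annotated exons share 227 of 1343 bases with Pbx2 on the same strand, and Pbx2 had 1263 counts with ChREBP-beta and 1462 with GFP. Gpsm1 averaged 10.9 ± 1.78 CPM with ChREBP-beta and 14.2 ± 0.849 CPM with GFP (SD, n = 3 each), 1.30-fold lower (edgeR adjusted p = 0.00582), and without ChREBP-beta replicate 1 it was not called (edgeR adjusted p = 0.0528). Gpsm2 had 53.7, 46.8 and 54.6 CPM in the ChREBP-beta libraries and 55.6, 57.8 and 56.8 CPM in the GFP libraries, 1.10-fold lower close to the threshold (edgeR adjusted p = 0.0457). The Gpsm2 call was lost without ChREBP-beta replicate 2, where the log2 fold change was -0.06, and without GFP replicate 2 or 3 (edgeR adjusted p = 0.34, 0.139 and 0.0892). It was also lost with RLE scaling (edgeR adjusted p = 0.0523) and in DESeq2 (adjusted p = 0.099).

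**Figure D3:**
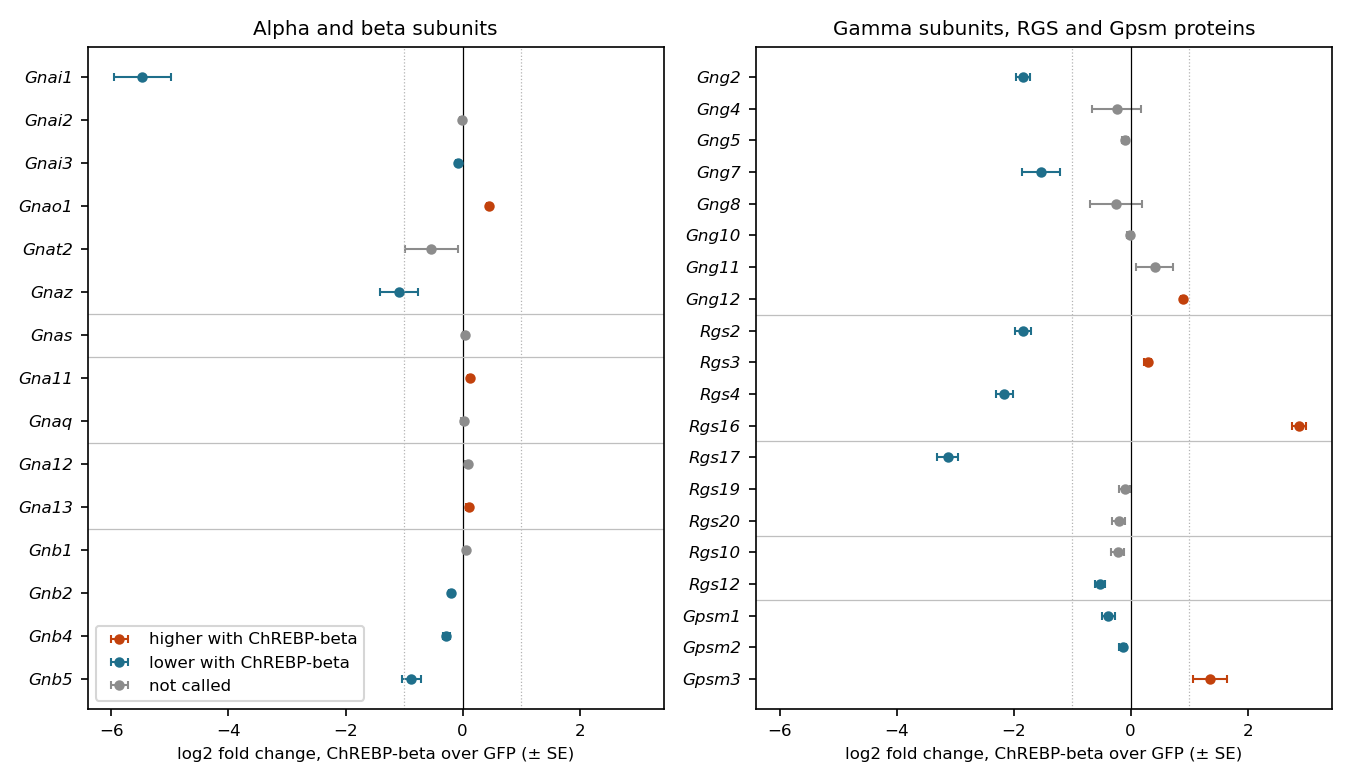
Log2 fold change of ChREBP-beta over GFP for the 35 tested members, with the standard error as bars and dotted lines at a 2-fold change; colours mark calls at an adjusted p under 0.05. Rgs16 lies furthest to the right at 2.88 and Gnai1 furthest to the left at -5.47, and the Gs, Gq and G12 alpha subunits lie close to 0.

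Several members sit next to a relative in the genome, and most of these relatives had few counts. Rgs8 and Rgs16 are 40.0 kb apart on chromosome 1 on the same strand. Rgs8, which was not tested, had 20 counts over the ChREBP-beta and 4 over the GFP libraries, a ratio of 5.06 (95% counting interval 1.70 to 20.4), in the same direction as Rgs16. Rgs5 and Rgs4 are 45.7 kb apart on opposite strands, and Rgs5, also not tested, had 10 counts over the ChREBP-beta and 28 over the GFP libraries, a ratio 2.77-fold lower (95% counting interval 1.31 to 6.38). Rgs9 and Gna13 are 64.7 kb apart on opposite strands and moved in different directions: Rgs9, not tested, had 9 counts over the ChREBP-beta and 33 over the GFP libraries, a ratio 3.62-fold lower (95% counting interval 1.70 to 8.61), whereas Gna13 was called higher. Rgs2 is 134.5 kb from Rgs13, which had 1 count with ChREBP-beta and 0 with GFP. Gna11 and Gna15 are 4.5 kb apart, and Gna15, a Gq-class subunit of blood cells, had 3 counts over the ChREBP-beta and 10 over the GFP libraries. Gnat1, 39.1 kb from Gnai2, had 2 counts over the ChREBP-beta and 1 over the GFP libraries, and Gna14, 48.3 kb from Gnaq, had 9 over the ChREBP-beta and 4 over the GFP libraries. The pairs of neighbours were looked up after the values were seen.

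Of the 22 members that were not tested, 10 had fewer than 10 counts over all 6 libraries, and 2 of these, Gnat3 and Rgs21, had none, which allows up to 0.159 to 0.173 CPM in each ChREBP-beta library and 0.157 to 0.167 CPM in each GFP library. The other 12 had up to 57 counts. The highest was Gnal, the olfactory Gs-type alpha subunit, with 20 counts over the ChREBP-beta and 37 over the GFP libraries, and its counts were fractional in all 6 libraries. Rgs9bp, which encodes the membrane anchor of the R7 protein Rgs9, had 15 counts over the ChREBP-beta and 5 over the GFP libraries, a ratio of 3.04 (95% counting interval 1.05 to 10.7), opposite in direction to Rgs9. No difference among these genes was tested, and their intervals cover counting error only.

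Genes that G proteins act on, and genes that act on them, were read in lists chosen by role. Their counts stand beside the 58.7% of all genes called, 29.5% higher and 29.3% lower, and no list was tested against that background. All 4 tested adenylyl cyclases were called, 1 higher and 3 lower. Adcy7 averaged 372 ± 12.8 CPM with ChREBP-beta and 283 ± 4.79 CPM with GFP (SD, n = 3 each), 1.31-fold higher (edgeR adjusted p = 4.73e-11), and Adcy6 was 1.21-fold lower (edgeR adjusted p = 2.44e-06). Of the 3 tested phospholipase C beta genes, the effectors of Gq, Plcb4 was 2.82-fold lower, at 40.4 ± 0.813 CPM with ChREBP-beta and 114 ± 2.63 CPM with GFP (SD, n = 3 each; edgeR adjusted p = 1.81e-19), and Plcb1 was 5.50-fold lower (edgeR adjusted p = 2.93e-16). Plcb3 averaged 118 CPM with ChREBP-beta and 119.6 CPM with GFP (edgeR adjusted p = 0.696). Of the kinases that switch off receptors, Grk6 rose 1.55-fold and Grk5 1.89-fold (edgeR adjusted p = 5.03e-12 and 1.28e-11), as did Grk3, at 2.79 CPM with ChREBP-beta and 0.239 CPM with GFP (edgeR adjusted p = 1.91e-07), which was picked after its values were seen and passed the filter on low counts only through the ChREBP-beta libraries. Grk2 averaged 70.8 CPM with ChREBP-beta and 73.6 CPM with GFP and was not called, nor was Grk4 (edgeR adjusted p = 0.276 and 0.828). In all, 3 of 7 tested GRK and beta-arrestin genes (42.9%) were higher and 0 lower. The direction of Grk3 was fixed by the filter, and the 42.9% includes it. The beta-arrestin genes Arrb1 and Arrb2 were not called (edgeR adjusted p = 0.438 and 0.934).

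Downstream of cyclic AMP, 4 of 7 tested genes of protein kinase A were higher and 2 lower. The regulatory subunit gene Prkar2a was 1.74-fold higher, and Pkia, which encodes an inhibitor of the kinase, was 1.84-fold lower, at 10.05 ± 1.90 CPM with ChREBP-beta and 18.4 ± 0.875 CPM with GFP (SD, n = 3 each; edgeR adjusted p = 3.54e-15 and 2.73e-07). Among 8 tested phosphodiesterases that break down cyclic AMP, 4 were higher and 1 lower: Pde8a fell 3.94-fold, to 17.98 CPM with ChREBP-beta, against 70.9 CPM with GFP, and Pde4b rose 2.50-fold (edgeR adjusted p = 5.39e-18 and 5.41e-13). Of the 3 guanine nucleotide exchange factor genes with RGS-like domains, the effectors of G12 and G13, Arhgef12 and Arhgef1 rose 1.10-fold and 1.14-fold (edgeR adjusted p = 5.4e-04 and 6.07e-04) and 1 fell. Of 4 chaperone genes, Cct2 rose and Pdcl fell, each by under 1.1-fold (edgeR adjusted p = 0.0178 and 0.0346), and Ric8a and Ric8b, which fold alpha subunits, were not called. Of 28 tested receptors, 7 were higher (25%), 16 lower (57.1%) and 5 not called. Among the lower ones, Adra1b, Lpar2, Lpar3 and Cxcr4 passed the filter on low counts only through the GFP libraries. Their direction was thus fixed by the filter, and the 57.1% includes them. The 2 receptors with the smallest adjusted p were both higher. Ackr3, an atypical chemokine receptor that signals through arrestin, rose 11.1-fold and the Wnt receptor gene Fzd7 1.92-fold (edgeR adjusted p = 2.35e-21 and 8.2e-15). Cxcr4, which binds the same chemokine as Ackr3 and was picked after its values were seen, was 9.68-fold lower (edgeR adjusted p = 2.62e-08) and passed the filter on low counts only through the GFP libraries. No GIRK channel gene was tested, as their counts were too low.

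**Figure D4:**
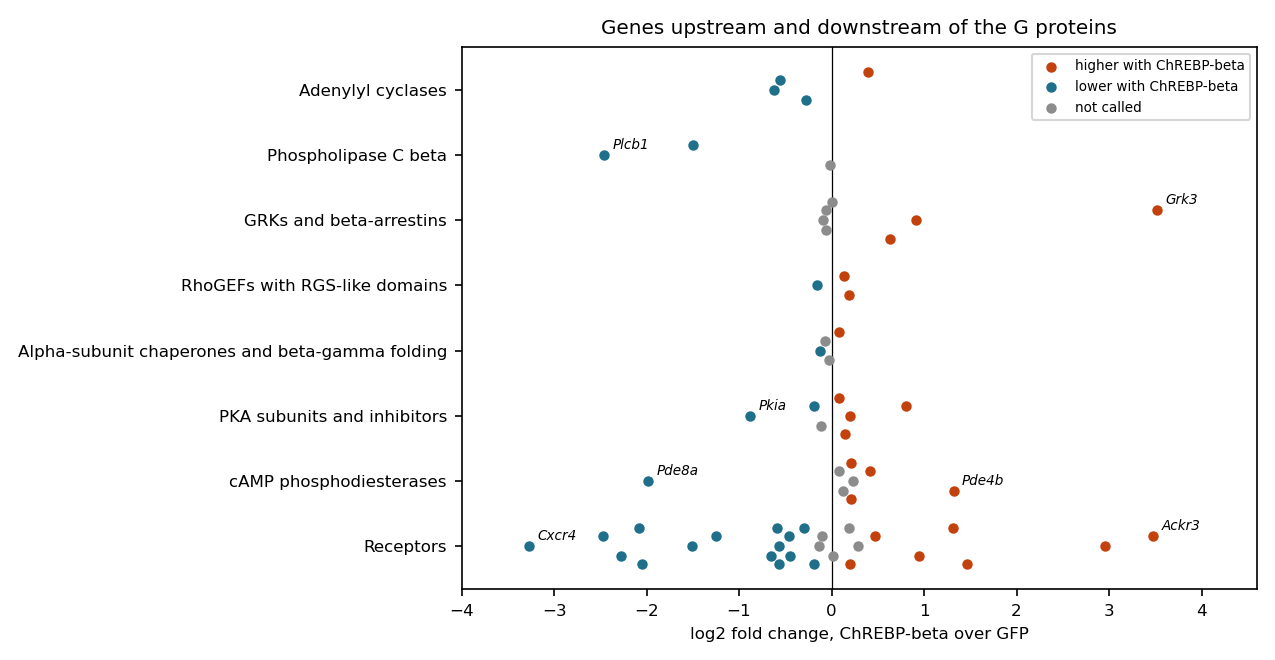
Log2 fold change of ChREBP-beta over GFP for the tested genes of 8 lists of effectors, regulators and receptors, coloured by call; Adra1b, with 0 counts in every ChREBP-beta library, is not drawn. Points spread to both sides in most lists, with Plcb1 at -2.46, Pde8a at -1.98 and Cxcr4 at -3.27 to the left and Grk3 at 3.52 and Ackr3 at 3.48 to the right.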

How the data were processed

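The deposited table holds estimated counts of the authors, one value per gene symbol and library, with no normalization; 7.74% of the values are fractional, as happens when a read is divided between genes, and this touches 5 of the 35 tested members. Per the submitters' processing notes, fastp, Bowtie2 (version 2.0.0.5) and TopHat2 (version 2.0.0) were used. The notes give GRCg6a, which is a chicken assembly, although the symbols are mouse genes. No source used here names the counting tool, annotation or strand setting. Exons of 15 tested members overlap another gene. Reads there cannot be assigned without strand, and where both genes lie on the same strand, strand would not assign them either.

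Repeated symbols (24) were summed and counts rounded. Genes passing filterByExpr (minimum count 10, total 15) were tested two-sided in edgeR 4.0.16 (R 4.3.3) with TMM scaling, glmQLFit and glmQLFTest over 12166 genes, with Benjamini-Hochberg adjustment; the standard error is the size of the log2 fold change over the square root of F. CPM carries the TMM scaling, and CPM per kilobase uses exon unions of GENCODE M21 on GRCm38, joined by symbol. The procedure was tested on simulated data. Replicates differed by more than sampling noise (chi-square per degree of freedom 2.15 to 3.96), and all 6 libraries were kept. That excess does not show that the replicates were separate cultures. The common coefficient of variation among replicates fitted by edgeR was 3.44%. Floors of 3 counts, and 95% intervals (Clopper-Pearson on the split of counts), cover counting error only. The tests were repeated with RLE, upper-quartile or library-size scaling, without a filter, with a minimum mean of 5 CPM, in DESeq2 1.42.0 and limma-voom (limma 3.58.1), with a replicate block, with Mlxipl and 10 abundant genes kept out of the scaling, without each library, and with a 2-fold minimum.

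The members and lists were chosen with earlier results of these data known. Every member may be named; values in every library are given for members called with at least a 2-fold change and for the highest called member of a class, and of each pathway list the 2 called genes with the smallest adjusted p are named. The half-site and TATA motifs were added with the data in view. Protein sequences were not used here. One marker gene is not reported here.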

Additional observations from a re-analysis of the deposited data

How the results depend on the processing

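Under a 2-fold minimum, 2 members were called higher and 7 lower, against 7 and 14 without it. Under all other alternatives both counts stayed within 1.5 times, and leaving out each library in turn gave 6 to 7 members higher and 12 to 14 lower. The 9 members changed at least 2-fold kept their call and direction in 131 of 131 values under the alternatives that tested them. Among the 9 is Gnai1, which passed the filter on low counts only through the GFP libraries. Where that filter was applied, the direction of Gnai1 was fixed, so its values are no support for its call. Gnaz ranged from -1.28 to -0.89 when a library was left out. Of 517 values of the tested members under the alternatives, 485 kept direction and call, 15 lost the call, 10 gained one and 7 changed sign, over 12 members, of which Gpsm1 had the largest change at 1.30-fold. The sign changes were in members not called: Gnaq had -0.0146 under upper-quartile factors, -0.0283 under library size only and -0.000152 to 0.0394 over the libraries left out in turn; Gnas had -0.00964 under library size only; and with a library left out Gng10 ranged from -0.0474 to 0.0209 and Gnai2 from -0.0339 to 0.00131. The cause was not tested. The small differences of Gna13, Gpsm2 and Gnb1 crossed the threshold most often.

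The replicate numbers did not pair the samples: deviations of same-numbered libraries correlated at -0.0129, 0.0039 and -0.0409. With the replicate number as a block, 7 members were called higher and 13 lower, Gpsm2 being the call lost (edgeR adjusted p = 0.0559). Scaling by library size only moved the median log2 fold change of all genes to -0.05 and called 5 members higher and 16 lower, where all genes gave 2989 higher and 4166 lower, against 3584 and 3561 with TMM scaling. Depth limits the members under about 1 CPM in a group; Gnai1 has the largest standard error, 0.488.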
